A study of Mus musculus with 2 samples.

Results

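Lysosomal enzymes and membrane proteins were followed here as a list of 35 genes, and all 35 had a row among the 15416 genes of the deposited matrix. The list holds 7 cysteine proteases, 3 other peptidases, 6 enzymes that cut sugar chains, 8 lipid hydrolases and lipid-binding activators, 9 proteins of the lysosomal membrane, the secreted cathepsin inhibitor Cst3 and the growth factor precursor Grn. The members are a list of names, with no cut-off on measured values, but they were chosen with earlier results of these data known. The question was how the macrophages of the sort differ in these genes from its dendritic cell subsets.

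The cells had been sorted as CD45+ and JAML+ from mouse tumours and sequenced with the 5' droplet chemistry of 10x Genomics, with an antibody-tag library from the same sort. The series is about JAML, an adhesion receptor, on tissue-resident memory T cells, and its labels name the sample as T cells and, in the extraction text, as TREG. Hashtags named B16F10-isotype-CTRL assign 5968 of the 5976 cells to 3 mice, which form a single group, so cell classes are compared inside each mouse (n = 3). B16F10 is a mouse melanoma line. The sex, age and strain of the animals and what the isotype control stood against are not given in the sources used here.

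Lysosomes are acidic compartments in which proteins, sugar chains and lipids taken up from outside or delivered from within the cell are taken apart. Phagocytes such as macrophages use them to clear ingested material, whereas dendritic cells need limited proteolysis so that peptides survive to be loaded onto MHC molecules. Many lysosomal genes carry a palindromic E-box element near their start that is bound by TFEB, TFE3 and MITF, transcription factors held in check by the kinase mTORC1 at the lysosome surface.

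Classes of cells were the authors' finest deposited subclusters, 16 in all, named from marker genes with the suffix "-like". The macrophage-like class was subcluster 2 with 715 cells (275, 241 and 199 in the 3 mice). It was set against a cDC1-like class of 369 cells, a cDC2-like class of 524 cells, a mature dendritic-like class of 125 cells and a plasmacytoid (pDC)-like class made of 2 subclusters with 931 and 268 cells. Median unique molecular identifiers (UMIs, each counting 1 captured RNA molecule) per cell were 19798 in macrophage-like cells, 26945 in cDC1-like, 24415.5 in cDC2-like and 18763 in mature dendritic-like cells. In the pDC-like subclusters they were 13482 and 12510. All 10 macrophage markers were highest in subcluster 2, where their summed level was 3830 to 4072 counts per 1000000 UMIs (CPM) over the mice, against 358 to 441 CPM in cDC2-like and 18.4 to 76.8 CPM in cDC1-like cells. Monocyte markers were high there too: 4 of 6 (among them Vcan, Fn1 and Chil3) were highest in subcluster 2, with a summed level of 5871 to 6082 CPM, so subcluster 2 holds monocyte-like as well as macrophage-like RNA. The summed monocyte list does not set it apart from the main pDC-like subcluster, which had 6662 to 8548 CPM. Neutrophil markers summed to between 53.0 and 494 CPM in it, and 19.2% of its cells had at least 2 UMIs of T cell genes, against 20.3% of cDC1-like and 25% of cDC2-like cells. Without all cells that had such UMIs, the counts of members called against the dendritic average were again 29 higher and 1 lower.

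UMIs were summed per mouse and subcluster and compared with edgeR's quasi-likelihood test over all 10267 genes that passed its filter on low counts, with the mouse as a block. A gene is called here when its adjusted p is under 0.05, and a fold change is the log2 ratio with its standard error (SE). The authors built the subclusters from the expression of these same cells, the 35 genes included. Tests between them are to that extent circular. Their p-values set the size of a difference against the residual variation over the subclusters and 3 mice of the fit. They do not measure how evenly a difference recurred over the mice. Ctsl, for example, was called higher in mature dendritic-like than in cDC2-like cells (edgeR adjusted p = 0.04), with lower CPM in 2 of 3 mice. Only Cd63 in mature dendritic-like cells and Ctsl in pDC-like cells stood among the 10 leading genes of a subcluster, and their levels there are given without a test. All comparisons of macrophage-like cells share the same macrophage values.

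Against the equal-weight average of the 4 dendritic classes, 29 of the 35 members were higher in macrophage-like cells and 1 was lower, the inhibitor Cst3. Among all genes tested, 53.8% were called, 28.4% higher and 25.4% lower. Because the members were chosen with earlier results of these data known, this contrast does not test the list as a set. This average is taken on the log2 scale, where a single very high class counts for less than in a mean of CPM. For Ctsl, Cd63, Ppt1, Npc1, Plbd1 and Grn, all called higher, the macrophage-like CPM lay below the plain mean CPM of the 4 classes. The median log2 fold change of the members was 0.75, against -0.02 over all genes. Without Cd63 and Ctsl, 27 of 33 were higher and 1 was lower. The 5 members not called were Ctsh, Gaa, Glb1, Mcoln1 and Scarb2. In 14 of the 35, each mouse's macrophage-like value lay above all values of the 4 dendritic classes, and in 0 of 35 it lay below all of them. For 31 of the 35, the macrophage-like level varied by under 20% over the mice (coefficient of variation). The counts of overlap and of variation were made for the members only, with no matching share over all genes. They are a description and do not set the members apart from other genes.

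**Figure D1:**
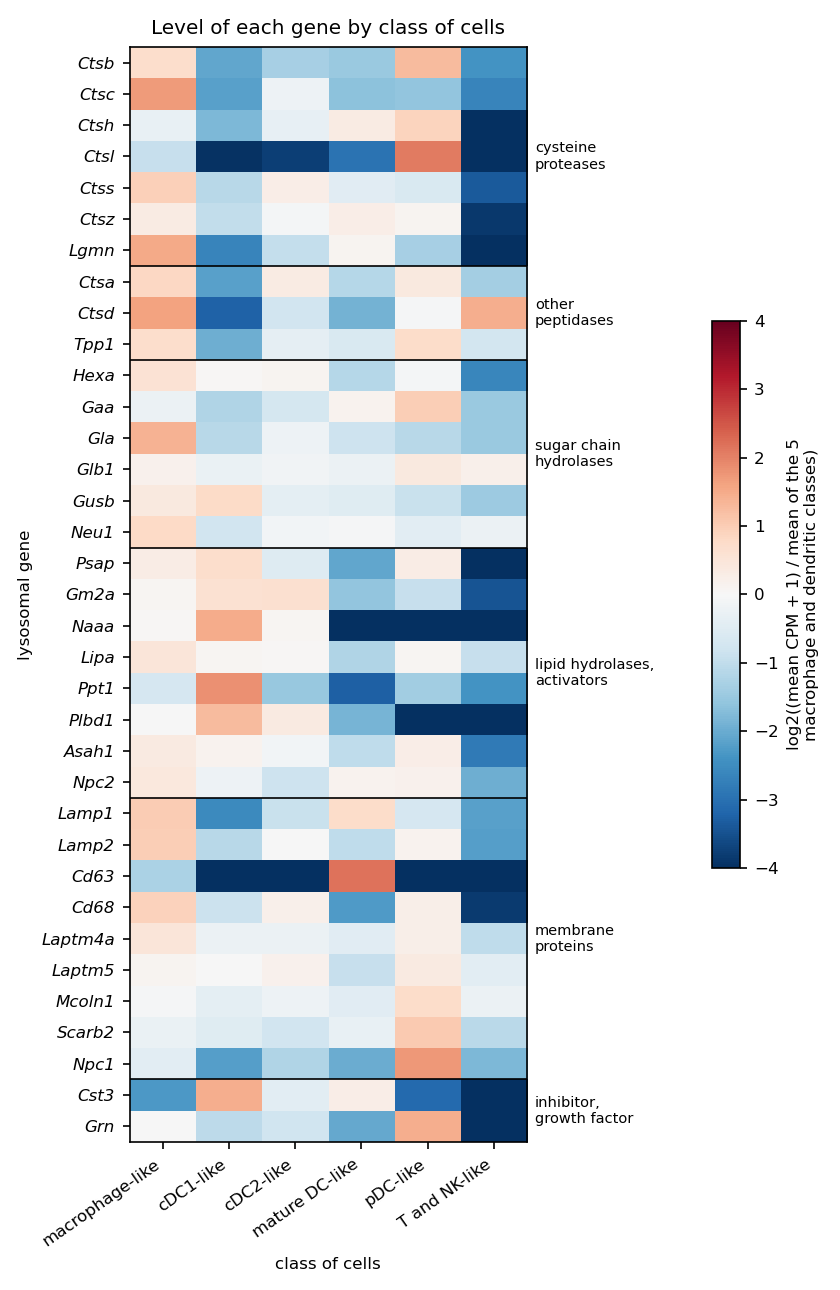
Level of each of the 35 genes in the macrophage-like, 4 dendritic-like and pooled T and NK-like classes. Colour is the log2 ratio of the mean CPM over 3 mice (plus 1) to the mean of the macrophage-like and dendritic-like classes, cut at 4 either way, and rows are grouped by role. Red moves from the macrophage column for most proteases to the cDC1 column for Naaa, Ppt1, Plbd1 and Cst3 and to the pDC column for Ctsl, Npc1 and Grn.

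The class with the highest level differed by gene. Macrophage-like cells led for 16 members, pDC-like cells for 11, cDC1-like cells for 6, and cDC2-like and mature dendritic-like cells for 1 each (Gm2a and Cd63). In 14 of the 16 led by macrophage-like cells the values did not overlap with those of the next class. The exceptions were Ctsz, which overlapped with mature dendritic-like cells, and Asah1, which overlapped with pDC-like cells. Called subset by subset, 13 members were higher in macrophage-like cells than in every dendritic class: Ctsc, Ctss, Lgmn, Ctsa, Ctsd, Hexa, Gla, Neu1, Lipa, Asah1, Lamp2, Cd68 and Laptm4a. No member was lower than in all 4. The order of classes, the overlaps and the calls in all 4 comparisons were counted for the members only. Without a matching share over all genes, these tallies are a description. Among all 16 subclusters the highest means of Ctsa and Asah1 were in subcluster 13, a group with pDC and cDC2 markers that was left unnamed and outside the dendritic classes. Ctsa averaged 322 ± 34.1 CPM in macrophage-like cells and 339 ± 29.1 CPM in subcluster 13, and Asah1 257 ± 13.7 CPM in macrophage-like cells and 275 ± 33.2 CPM in subcluster 13, with overlapping values.

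Promoters are shown as examples with and without an E-box: Lamp1, Ctsd and Gla, which were picked because they hold one, and Cst3, the member lower against the average. They do not stand for their classes, since 5 of 15 members led by macrophage-like cells and 4 of 8 led by pDC-like cells had an E-box among those with a window. Each window is the RefSeq window on GRCm38.p6 (the build named mm10), 250 bases before to 50 bases after the annotated start, read 5′ to 3′ on the gene's strand. Capitals mark each CACGTG E-box with as much of its flank as matches the palindromic consensus described for lysosomal genes, which is TCACGTGA with a G before it and a C after it. The windows are at chr8:13158911-13159210, plus strand, for Lamp1, chr7:142387778-142388077, minus strand, for Ctsd, chrX:134600956-134601255, minus strand, for Gla, and chr2:148875463-148875762, minus strand, for Cst3.
Lamp1: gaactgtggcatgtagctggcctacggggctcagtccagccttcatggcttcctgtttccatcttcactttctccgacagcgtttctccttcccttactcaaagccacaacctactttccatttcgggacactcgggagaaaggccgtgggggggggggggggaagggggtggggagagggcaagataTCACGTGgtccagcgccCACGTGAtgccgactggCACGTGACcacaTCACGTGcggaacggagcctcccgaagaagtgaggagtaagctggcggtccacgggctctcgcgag
Ctsd: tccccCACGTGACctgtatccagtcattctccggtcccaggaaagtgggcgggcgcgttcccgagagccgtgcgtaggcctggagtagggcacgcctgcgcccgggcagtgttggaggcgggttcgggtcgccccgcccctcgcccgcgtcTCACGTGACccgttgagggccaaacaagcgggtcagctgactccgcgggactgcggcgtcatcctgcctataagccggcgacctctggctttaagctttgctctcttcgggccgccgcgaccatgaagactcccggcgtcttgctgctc
Gla: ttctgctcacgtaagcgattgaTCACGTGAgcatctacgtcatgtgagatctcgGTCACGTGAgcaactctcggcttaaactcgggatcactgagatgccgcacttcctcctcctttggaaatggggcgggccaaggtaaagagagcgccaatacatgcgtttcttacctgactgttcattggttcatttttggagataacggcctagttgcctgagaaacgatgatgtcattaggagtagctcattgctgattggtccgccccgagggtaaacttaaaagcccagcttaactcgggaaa
Cst3: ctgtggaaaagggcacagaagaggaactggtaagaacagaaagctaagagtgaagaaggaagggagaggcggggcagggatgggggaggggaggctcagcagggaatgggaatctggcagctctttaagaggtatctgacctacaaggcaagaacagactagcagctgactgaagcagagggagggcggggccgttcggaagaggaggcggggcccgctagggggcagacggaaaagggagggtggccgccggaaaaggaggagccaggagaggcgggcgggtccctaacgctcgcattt

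Lamp1 carries 4 such E-boxes in a run that starts 61, 45, 28 and 15 bases before its start. Ctsd has E-boxes at 245 and 98 bases before its start and Gla at 227 and 194 bases before, while the Cst3 window has no CACGTG. RefSeq windows were given for 31 of the 35 members and not used here for Ctsb, Ctsh, Asah1 and Npc1. A CACGTG, which reads the same on both strands, stood in a window of 10 of the 31 (32.3%): Ctsa, Ctsd, Ctsl, Gaa, Gla, Glb1, Lamp1, Lgmn, Mcoln1 and Plbd1. For Ctsa and Lgmn it lay in the window of only 1 of 2 listed starts. Of all 11212 matrix genes with a window, 1260 (11.2%) held it. The inner 8 letters TCACGTGA were found in 4 of 31 members (12.9%) and in 2.04% of matrix genes, and the full consensus in 0 of 31 and 0.74%. The 10 genes with an E-box were split between classes: Ctsa, Ctsd, Gla, Lamp1 and Lgmn were highest in macrophage-like cells, Ctsl, Gaa, Glb1 and Mcoln1 in pDC-like cells and Plbd1 in cDC1-like cells.

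Among the cysteine proteases, 6 of 7 were higher in macrophage-like cells than in the dendritic average, beside 28.4% of all genes tested. The largest difference was in Ctsc. Ctsc (cathepsin C, a dipeptidyl peptidase that activates granule serine proteases) measured 1629, 1522 and 1483 CPM in macrophage-like cells of mice 1, 2 and 3. The cDC2-like class, next in order, had 484, 375 and 365 CPM, and the means of the other dendritic classes lay between 104 and 156 CPM. The groups did not overlap, and the log2 fold change against the average was 3.11 ± 0.09 (SE, adjusted p = 2.4e-20).

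Lgmn (legumain, an endopeptidase that cuts after asparagine) had 431, 581 and 418 CPM in macrophage-like cells. In mature dendritic-like cells, the next class, it had 179, 172 and 191 CPM, and in cDC1-like cells 14.7, 38.1 and 24.9 CPM. Every macrophage-like value exceeded every dendritic value, with log2 fold changes of 1.17 ± 0.19 (SE, adjusted p = 8e-06) against mature dendritic-like and 4.28 ± 0.20 (SE, adjusted p = 1.5e-15) against cDC1-like cells. With each cell thinned to 7537 UMIs, 79.4% ± 1.33 (SD, n = 3) of macrophage-like cells kept a Lgmn UMI, against 53.1% ± 2.75 of mature dendritic-like and 16.1% ± 3.84 of cDC1-like cells. In T and NK-like cells, taken as the background, the share was 3.14% ± 0.360, with median UMIs of 8550 to 27482 per subcluster before thinning. Unthinned, the share was 92.1% in macrophage-like, 67.7% in mature dendritic-like, 37.5% in cDC1-like and 5.44% in T and NK-like cells.

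Ctss (cathepsin S, which trims the invariant chain of MHC class II) was also highest in macrophage-like cells, at 2419 ± 364 CPM (SD, n = 3), against 1490 ± 151 in cDC2-like, 907 ± 37.7 in mature dendritic-like, 821 ± 46.0 in pDC-like and 576 ± 17.7 CPM in cDC1-like cells. The difference from cDC2-like cells was the smallest, a log2 fold change of 0.68 ± 0.13 (SE, adjusted p = 0.00011). Ctsz (cathepsin Z, a carboxypeptidase) spanned a narrower range, from 1067 ± 137 CPM in macrophage-like to 432 ± 25.5 CPM in cDC1-like cells.

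Ctsb, Ctsh and Ctsl were highest in pDC-like cells. Ctsb (cathepsin B) had 1004, 1195 and 986 CPM in macrophage-like cells, against 1559, 1590 and 1522 CPM in pDC-like and 277, 257 and 243 CPM in cDC2-like cells. It was thus lower than in pDC-like cells (log2 fold change -0.33 ± 0.10, SE, adjusted p = 0.0035) and higher than in cDC2-like cells (2.02 ± 0.12, SE, adjusted p = 2.4e-13), with no overlap in either case. Ctsl (cathepsin L) had 222, 272 and 419.5 CPM in macrophage-like and 2407, 2362 and 2477 CPM in pDC-like cells, a gap that is a description because Ctsl is among the leading genes of both pDC-like subclusters. In mature dendritic-like cells Ctsl measured 37.5, 12.1 and 171 CPM, so mouse 3 stood far above the others there. The log2 fold change of macrophage-like over mature dendritic-like cells was 1.76 ± 0.37 (SE, adjusted p = 0.00024), and it was 2.96 without mouse 3. Against cDC1-like cells it was 2.94 ± 0.34 (SE, adjusted p = 4.1e-08), and 3.72 without mouse 1. Ctsh (cathepsin H, mainly an aminopeptidase) averaged 740.1 ± 54.9 CPM in macrophage-like cells, against 1685 ± 44.5 in pDC-like, 1138 ± 121 in mature dendritic-like, 723 ± 17.4 in cDC2-like and 261 ± 41.7 CPM in cDC1-like cells. The macrophage-like and cDC2-like values of Ctsh overlapped.

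**Figure D2:**
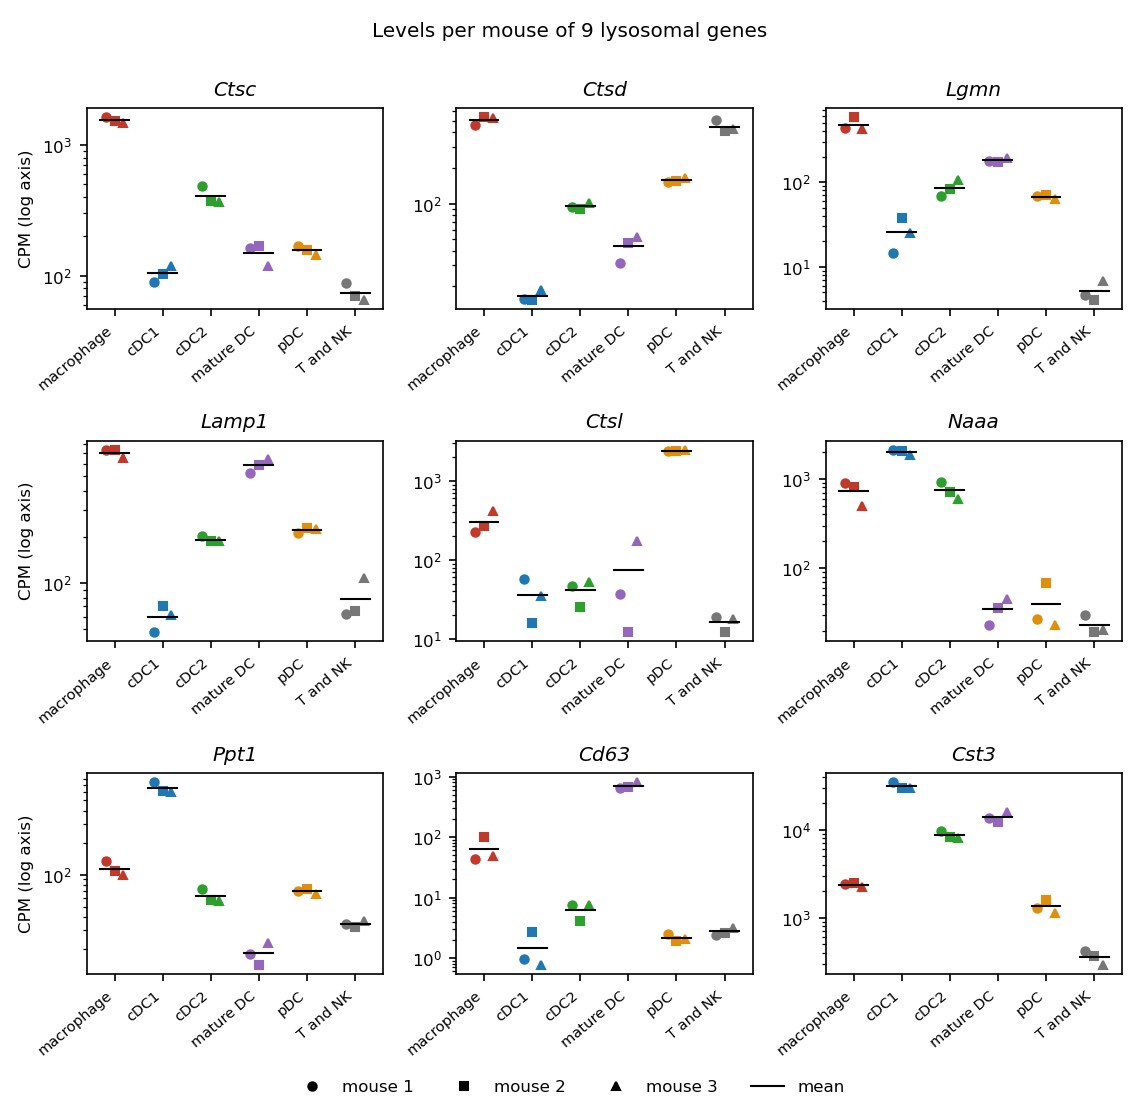
CPM of 9 of the genes in each of the 3 mice (symbols) and their mean (line), by class, on a log axis. Ctsc, Lgmn and Lamp1 are highest in macrophage-like cells, Ctsd is about as high in T and NK-like cells, and Ctsl, Naaa, Ppt1, Cd63 and Cst3 peak in a dendritic class.

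The other peptidases were all higher than in the dendritic average (3 of 3), beside 28.4% of all genes tested. Ctsd (cathepsin D, an aspartic protease) had 459, 535 and 525 CPM in macrophage-like cells. The pDC-like class had 151, 156 and 163 CPM and the cDC1-like class 15.6, 15.4 and 18.5 CPM. Macrophage-like values were several times every dendritic value, with a log2 fold change of 3.13 ± 0.08 (SE, adjusted p = 2.1e-21) against the average and 4.89 ± 0.14 (SE, adjusted p = 8.9e-20) against cDC1-like cells. In T and NK-like cells Ctsd had 505, 413 and 423 CPM, which overlapped with macrophage-like cells and averaged 5.72 times the mean of the dendritic classes. Across all 16 subclusters the highest mean of Ctsd was in a T cell-like one, 512 ± 146 CPM (SD, n = 2 mice with at least 10 cells). The annotation has a gene model, Gm49369, that overlaps coding exons of Ctsd on the same strand, so the split of reads between them is uncertain. Ctsa (a serine carboxypeptidase that also shields galactosidase and sialidase) averaged 322 ± 34.1 CPM in macrophage-like cells, against 237 ± 11.1 in pDC-like and 39.6 ± 7.34 CPM in cDC1-like cells. Tpp1 (tripeptidyl peptidase) averaged 56.6 ± 0.910 CPM in macrophage-like cells, against 58.1 ± 6.80 in pDC-like cells, with which they overlapped, and 8.13 ± 4.88 CPM in cDC1-like cells.

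Of the enzymes that cut sugar chains, 4 of 6 were higher than in the dendritic average, beside 28.4% of all genes tested. Gla (alpha-galactosidase A, which removes terminal galactose from glycolipids) measured 70.5, 80.5 and 71.5 CPM in macrophage-like cells and 15.9, 27.8 and 28.2 CPM in cDC2-like cells, the next class. These values did not overlap, and the log2 fold change was 1.69 ± 0.18 (SE, adjusted p = 3.7e-08) there and 2.30 ± 0.14 (SE, adjusted p = 3.4e-13) against the average. Neu1 (sialidase) averaged 54.3 ± 6.62 CPM in macrophage-like cells, against 29.9 ± 8.58 in mature dendritic-like and 17.7 ± 4.79 CPM in cDC1-like cells, and Hexa (a subunit of beta-hexosaminidase) 214 ± 38.6 against 154 ± 5.29 in cDC2-like and 64.7 ± 6.16 CPM in mature dendritic-like cells.

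Gusb (beta-glucuronidase) was highest in cDC1-like cells: 135 ± 18.9 CPM in macrophage-like against 174 ± 21.8 CPM in cDC1-like cells, a log2 fold change of -0.41 ± 0.10 (SE, adjusted p = 0.0013). Gaa (which digests glycogen) averaged 17.3 ± 1.11 CPM in macrophage-like and 42.0 ± 4.38 CPM in pDC-like cells, a log2 fold change of -1.03 ± 0.15 (SE, adjusted p = 1.4e-06). Glb1 (beta-galactosidase) averaged 15.5 ± 1.93 CPM in macrophage-like cells, against 18.02 ± 1.23 in pDC-like and 11.2 ± 2.62 CPM in cDC1-like cells, the narrowest spread of class means among the 35 genes (1.61 times). Glb1 shares coding sequence with Tmppe on the same strand, and its counts are uncertain for that reason.

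Lipid hydrolases and activators divided the classes differently. Against the dendritic average, 8 of 8 were higher in macrophage-like cells, beside 28.4% of all genes tested. Yet against cDC1-like cells 5 of the 8 were lower and 3 were higher. In the comparison with cDC1-like cells 25 of all 35 members were higher and 7 lower, where 50.3% of all genes were called (25.5% higher, 24.8% lower). The 5 lower in macrophage-like cells were Psap, Gm2a, Naaa, Ppt1 and Plbd1.

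Ppt1 (palmitoyl-protein thioesterase) had 133, 109 and 98.1 CPM in macrophage-like cells and 738, 612 and 594 CPM in cDC1-like cells. The other dendritic classes lay below macrophage-like cells, at 62.6 ± 8.85 in cDC2-like, 18.2 ± 4.28 in mature dendritic-like and 69.6 ± 4.14 CPM in pDC-like cells. Its log2 fold change was therefore -2.54 ± 0.11 (SE, adjusted p = 4.1e-16) against cDC1-like and 2.38 ± 0.23 (SE, adjusted p = 2.1e-09) against mature dendritic-like cells. Leaving out mouse 1, the call of Ppt1 against the dendritic average was lost (log2 fold change 0.34).

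Naaa (an amidase of fatty acid ethanolamides) had 891, 806 and 501 CPM in macrophage-like, 2106, 2061 and 1836 CPM in cDC1-like and 926, 708 and 598 CPM in cDC2-like cells. It was low in both remaining dendritic classes, with 22.9, 36.4 and 45.3 CPM in mature dendritic-like and 27.2, 69.0 and 23.0 CPM in pDC-like cells, near the 23.2 ± 5.89 CPM of T and NK-like cells. Macrophage-like cells thus overlapped with cDC2-like cells, lay below cDC1-like cells (-1.50 ± 0.23, SE, adjusted p = 4.6e-06) and lay above mature dendritic-like cells (4.14 ± 0.34, SE, adjusted p = 1.3e-10) and pDC-like cells (4.66 ± 0.23, SE, adjusted p = 1.4e-15). Without mouse 3 the log2 fold change against mature dendritic-like cells was 4.74. Plbd1 (a phospholipase B-like protein) was likewise highest in cDC1-like and low in pDC-like cells, at 561 ± 54.6 CPM in macrophage-like, 1378 ± 53.4 in cDC1-like, 726 ± 10.4 in cDC2-like, 156 ± 52.6 in mature dendritic-like and 34.4 ± 20.1 CPM in pDC-like cells.

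Psap (prosaposin, the precursor of the saposins) averaged 3113 ± 244 CPM in macrophage-like, 4136 ± 251 in cDC1-like, 3100 ± 222 in pDC-like, 1770 ± 199 in cDC2-like and 608 ± 132 CPM in mature dendritic-like cells. Gm2a (the GM2 ganglioside activator) was lower in macrophage-like cells, at 820.5 ± 41.3 CPM, than in both cDC1-like and cDC2-like cells at 1190 ± 103 and 1201 ± 109 CPM. Npc2 (which hands cholesterol to Npc1) and Lipa (acid lipase) were highest in macrophage-like cells by a small margin: Npc2 averaged 1456 ± 118 CPM against 1227 ± 44.4 in pDC-like cells, and Lipa 48.1 ± 2.94 CPM against 36.6 ± 3.46. Asah1 (acid ceramidase) averaged 257 ± 13.7 CPM in macrophage-like and 237 ± 17.9 CPM in pDC-like cells.

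**Figure D3:**
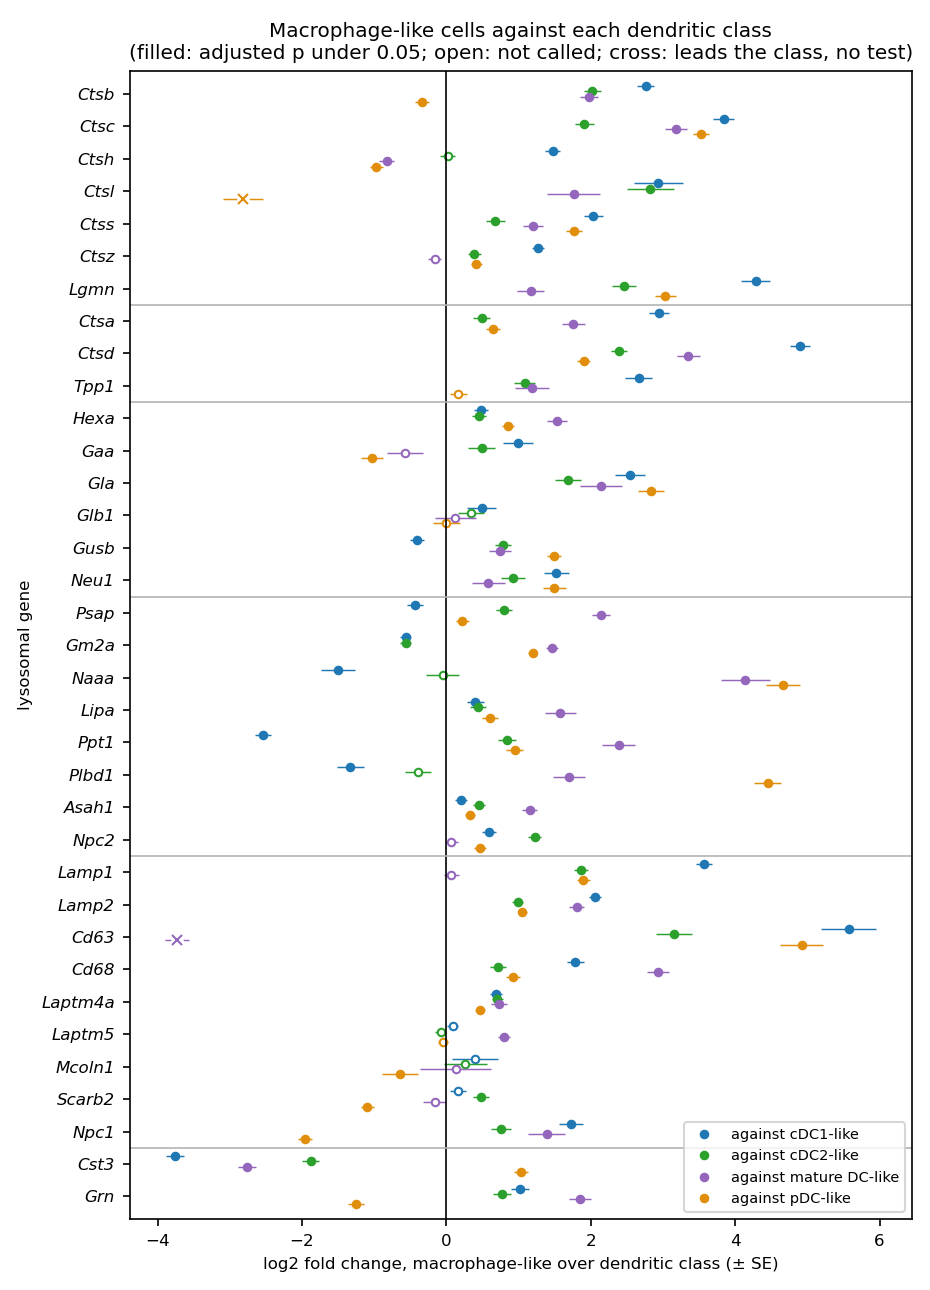
Log2 fold change of macrophage-like cells over each dendritic class for the 35 genes, with SE bars, by role. Filled points were called at an adjusted p under 0.05, open points were not, and crosses mark Cd63 and Ctsl in the classes they lead. Most points lie right of 0. Those to the left are mainly lipid enzymes and Cst3 against cDC1-like cells and Ctsh, Gaa, Scarb2, Npc1 and Grn against pDC-like cells.

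Of the membrane proteins, 7 of 9 were higher in macrophage-like cells than in the dendritic average, beside 28.4% of all genes tested. Lamp1, a main glycoprotein of the lysosomal membrane and the one with 4 E-boxes above, had 738, 736 and 652 CPM in macrophage-like cells. Mature dendritic-like cells came next with 525, 589.9 and 643 CPM, and cDC1-like cells had 47.5, 70.4 and 61.2 CPM. The first 2 classes did not overlap, although the difference was not called, and against cDC1-like cells the log2 fold change was 3.56 ± 0.11 (SE, adjusted p = 9.3e-19). Its relative Lamp2 averaged 317 ± 14.2 CPM in macrophage-like cells and was called higher than in each dendritic class, which lay between 74.8 CPM in cDC1-like and 178 CPM in pDC-like cells. Cd68 (macrosialin, a common macrophage marker) averaged 549 ± 35.04 CPM in macrophage-like cells, yet also 336 ± 23.6 in pDC-like and 332 ± 30.3 CPM in cDC2-like cells, with 59.3 ± 25.4 CPM in mature dendritic-like cells.

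Cd63 (a tetraspanin of late endosomes and their exosomes) had 43.7, 100.0 and 49.2 CPM in macrophage-like cells, with mouse 2 well above the others. Mature dendritic-like cells, of which it is a leading gene, had 641, 681 and 805 CPM. The 3 remaining dendritic classes averaged 1.46 ± 1.04 CPM in cDC1-like, 6.28 ± 1.96 in cDC2-like and 2.17 ± 0.309 CPM in pDC-like cells. The log2 fold change of macrophage-like over cDC2-like cells was 3.15 ± 0.25 (SE, adjusted p = 1.6e-10). In thinned cells 18.1% ± 5.56 (SD, n = 3) of macrophage-like cells had a Cd63 UMI, against 76.6% ± 7.14 of mature dendritic-like and 1.98% ± 0.564 of cDC2-like cells. The T and NK-like background was 1.23% ± 0.449. Unthinned, the share was 25.4% in macrophage-like, 78.9% in mature dendritic-like, 7.19% in cDC2-like and 2.18% in T and NK-like cells.

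Npc1, Scarb2, Mcoln1 and Laptm5 had their highest CPM in pDC-like cells, although for Laptm5 the difference from macrophage-like cells was not called. Npc1 (the cholesterol exporter of the lysosomal membrane) had 36.6, 44.1 and 33.2 CPM in macrophage-like and 165, 194 and 159 CPM in pDC-like cells, a log2 fold change of -1.96 ± 0.10 (SE, adjusted p = 4e-15), and was higher than in cDC1-like cells (10.3 ± 3.58 CPM). Scarb2 (the carrier of glucocerebrosidase to lysosomes) averaged 46.8 ± 1.62 CPM in macrophage-like and 117 ± 3.78 CPM in pDC-like cells (-1.10 ± 0.09, SE, adjusted p = 8e-11). Mcoln1 (a calcium channel of lysosomes) was low throughout, at 7.13 ± 1.57 CPM in macrophage-like and 12.9 ± 2.40 CPM in pDC-like cells. Laptm5, a haematopoietic lysosomal protein, averaged 806 ± 26.2 CPM in macrophage-like cells, against 965 ± 18.1 in pDC-like and 399.8 ± 55.3 CPM in mature dendritic-like cells. Without mouse 1 or without mouse 2, its call against the average was lost (log2 fold changes 0.20 and 0.17). Laptm4a, a multispanning protein of late endosomes and lysosomes and highest in macrophage-like cells, averaged 168 ± 10.1 CPM in macrophage-like and 139.9 ± 11.8 CPM in pDC-like cells.

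Cst3 (cystatin C, a secreted inhibitor of cysteine cathepsins) ran against the rest. It had 2439, 2451 and 2204 CPM in macrophage-like cells. In cDC1-like cells it had 34630, 30030 and 29610 CPM, and in mature dendritic-like cells 13610, 12310 and 15780 CPM. The cDC2-like class had 9566, 8309 and 7965 CPM and the pDC-like class 1303, 1602 and 1137 CPM. No 2 of these 5 classes overlapped, and the log2 fold change of macrophage-like cells was -3.76 ± 0.13 (SE, adjusted p = 3.1e-18) against cDC1-like, -1.88 ± 0.12 (SE, adjusted p = 1.6e-12) against cDC2-like and 1.04 ± 0.10 (SE, adjusted p = 6e-10) against pDC-like cells. Grn (progranulin, needed for normal lysosomal function) averaged 436 ± 80.6 CPM in macrophage-like and 1198 ± 80.7 CPM in pDC-like cells (-1.25 ± 0.11, SE, adjusted p = 2e-10), with 253 ± 9.83 in cDC2-like and 106 ± 25.3 CPM in mature dendritic-like cells.

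Summed over all 35 genes, with the UMIs of both pDC-like subclusters pooled, the members took 2.16% ± 0.16 (SD, n = 3) of UMIs in macrophage-like cells, against 4.54% ± 0.32 in cDC1-like, 2.04% ± 0.15 in cDC2-like, 2.25% ± 0.25 in mature dendritic-like, 1.82% ± 0.061 in pDC-like and 0.288% in T and NK-like cells. With gated classes the share was 2.19% in macrophage-like and 1.38% in mature dendritic-like cells, so the order of these classes turned. Without Cst3 the order changed: 1.93% ± 0.142 in macrophage-like, 1.40% ± 0.0427 in cDC1-like, 1.18% ± 0.0634 in cDC2-like, 0.856% ± 0.0743 in mature dendritic-like and 1.70% ± 0.0458 in pDC-like cells. Cysteine proteases took 0.761% of UMIs in macrophage-like and 0.769% in pDC-like cells, against 0.159% in cDC1-like cells. Lipid hydrolases and activators took 0.710% in macrophage-like and 1.06% in cDC1-like cells.

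**Figure D4:**
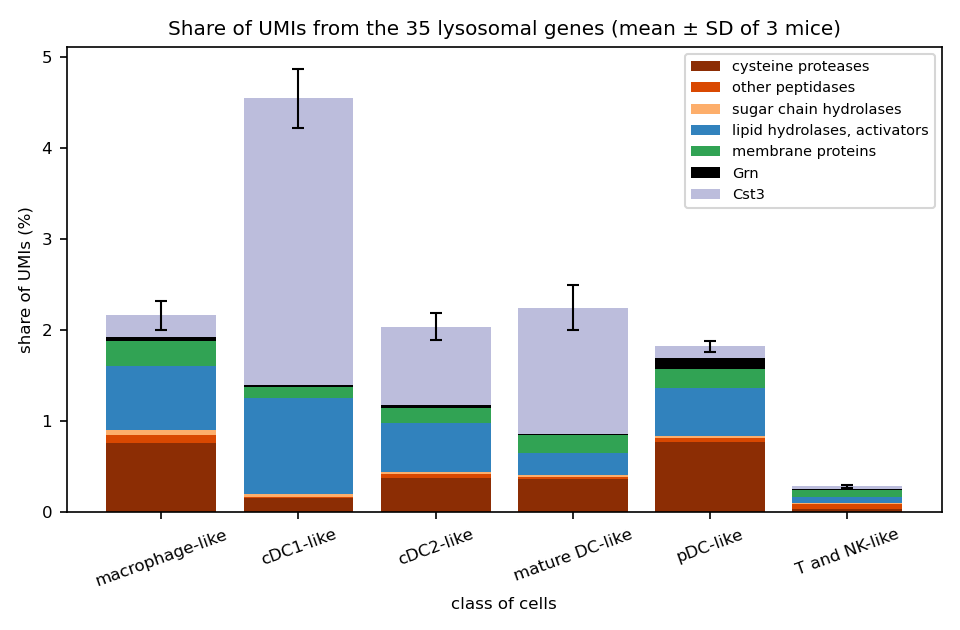
Share of UMIs from the 35 genes, stacked by role, as means of 3 mice, with Cst3 apart and the SD of the total as error bars. Cst3 makes up most of the bar of cDC1-like cells (4.54% in all, 1.40% without it), and cysteine proteases take the largest part in macrophage-like and pDC-like cells.

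Against the other subsets singly, 27 members were higher in macrophage-like cells than in cDC2-like cells and 2 were lower, where 35.6% of all genes were called (17.7% higher, 17.9% lower). Against mature dendritic-like cells 25 were higher and 3 lower (49.6% of all genes, 25.2% higher and 24.4% lower), with 2 lower once Cd63 is left out. Against pDC-like cells 24 were higher and 8 lower (67.3% of all genes, 34.4% higher and 32.9% lower), with 7 lower once Ctsl is left out. Of the cysteine proteases 4 were higher and 3 lower of 7 there, Ctsl among the 3. Calls rest on edgeR's own scaling of the sums and levels on plain CPM, and they can differ. Psap was called higher than in pDC-like cells (0.22 ± 0.10, SE, edgeR adjusted p = 0.043) at 3113 against 3100 CPM, with lower CPM in 2 of 3 mice. Laptm5, Tpp1 and Glb1, highest in pDC-like cells by CPM, were not called in that comparison.

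Differences among the dendritic classes were split by role between cDC1-like and cDC2-like cells. In both comparisons that follow it cysteine proteases were mixed, each time 4 of 7 higher and 2 lower. In cDC1-like against cDC2-like cells 9 members were higher and 16 lower, where 33.9% of all genes were called (15.1% higher, 18.8% lower). Cysteine proteases were lower for 6 of 7 and higher for 0, while lipid hydrolases and activators were higher for 6 of 8 and lower for 0. Examples are Ctsc, with a log2 fold change of -1.93 ± 0.14 (SE), Ctsa with -2.46 ± 0.14 and Lamp1 with -1.70 ± 0.11 on one side, and Ppt1 with 3.38 ± 0.12 and Psap with 1.24 ± 0.11 on the other. All are edgeR values with adjusted p of 1.5e-09 or less.

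In mature dendritic-like against cDC2-like cells 10 members were higher and 16 lower (42.5% of all genes, 20.8% higher and 21.7% lower), or 9 higher without Cd63. Lipid hydrolases and activators were lower for 7 of 8, the exception being Npc2, with a log2 fold change of 1.15 ± 0.10 (SE, adjusted p = 2.4e-10). Naaa had -4.20 ± 0.34 (SE, adjusted p = 1.9e-10) and Cd68 -2.22 ± 0.16 (SE, adjusted p = 1.3e-11), while Lamp1 was higher (1.80 ± 0.11, SE, adjusted p = 3e-13). Lgmn was higher as well (1.30 ± 0.21, SE, adjusted p = 1.2e-05). When classes were drawn instead from gates on marker transcripts, only 3 members were higher in mature dendritic-like cells, and 59.5% of the gated mature cells came from the mature subcluster.

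In pDC-like cells against the mean of cDC1-like and cDC2-like cells 18 members were higher and 10 lower (67.5% of all genes, 32.1% higher and 35.4% lower), or 17 higher without Ctsl. Npc1 had a log2 fold change of 3.20 ± 0.10 (SE, adjusted p = 9.1e-20), Ctsb 2.72 ± 0.08 (SE, adjusted p = 1.1e-19) and Grn 2.14 ± 0.09 (SE, adjusted p = 5.6e-17). On the other side stood Plbd1 with -5.31 ± 0.18 (SE, adjusted p = 5e-19) and Cst3 with -3.86 ± 0.09 (SE, adjusted p = 6.9e-22).

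Other genes of the lysosome were taken from lists of the same pathway, also chosen with earlier results of these data known. Of 31 further lysosomal hydrolases tested, 15 were higher in macrophage-like cells than in the dendritic average and 5 lower, beside the 28.4% higher and 25.4% lower of all genes. Against pDC-like cells alone 11 (35.5%) were higher and 13 (41.9%) lower, with a median log2 fold change of -0.23. Among all genes 34.4% were higher and 32.9% lower in that comparison, so the list lay near the share over all genes. Pla2g15 (a lysosomal phospholipase) averaged 25.9 ± 3.39 CPM in macrophage-like against 7.98 ± 2.41 CPM in pDC-like cells, with a log2 fold change against the average of 3.30 ± 0.20 (SE, adjusted p = 2e-13). Acp2, an acid phosphatase, had 2.05 ± 0.14 (SE, adjusted p = 1.8e-12). Arsb, a sulfatase, was lower (-1.85 ± 0.24, SE, adjusted p = 3.4e-07), at 5.41 ± 0.954 CPM in macrophage-like cells against 102 ± 7.58 CPM in cDC1-like cells, where it was highest.

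Of 26 further membrane proteins, 16 (61.5%) were higher and 5 (19.2%) lower against the average, beside 28.4% higher and 25.4% lower of all genes. Against pDC-like cells 10 (38.5%) were higher and 12 (46.2%) lower (median log2 fold change -0.39), beside 34.4% higher and 32.9% lower of all genes. Slc11a1 (a metal ion exporter of phagosomes) averaged 133 ± 26.0 CPM in macrophage-like cells and 5.91 ± 1.67 CPM in cDC1-like cells, the next class, with a log2 fold change against the average of 5.91 ± 0.21 (SE, adjusted p = 2.8e-18). Slc15a3, a peptide and histidine transporter, had 2.43 ± 0.10 (SE, adjusted p = 1.4e-16). Laptm4b and the tetraspanin Tspan3 were lower (-2.51 and -1.22), and Tspan3 averaged 20.4 ± 2.77 CPM in macrophage-like against 302 ± 51.7 CPM in mature dendritic-like cells. In cDC1-like, cDC2-like and pDC-like cells Tspan3 averaged 22.3 ± 1.10, 23.1 ± 0.754 and 33.0 ± 7.02 CPM. Its gap was thus mainly with mature dendritic-like cells.

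Of 16 subunits of the proton pump that acidifies lysosomes, 11 (68.8%) were higher and 3 (18.8%) lower against the average. Among all genes tested, 28.4% were higher and 25.4% lower in that comparison. Atp6v1b2 had a log2 fold change of 1.61 ± 0.07 (SE, adjusted p = 4.5e-16) and Atp6v0a1 1.60 ± 0.12 (SE, adjusted p = 1.2e-11), while Atp6v0a2 and Atp6v1d were lower (-0.58 and -0.31). Not every dendritic class lay above macrophage-like cells for these 2. Atp6v0a2 averaged 29.3 CPM in macrophage-like, 21.6 in mature dendritic-like and 122 CPM in cDC1-like cells, where it was highest. Atp6v1d averaged 98.6 CPM in macrophage-like, 93.5 in cDC2-like, 81.8 in mature dendritic-like and 255 CPM in pDC-like cells. Of 15 genes for tagging and sorting of lysosomal enzymes, 5 were higher and 1 lower against the average, so 40% were called, fewer than the 53.8% of all genes. Against mature dendritic-like cells 6 were higher and 6 lower, beside 25.2% higher and 24.4% lower of all genes. Sorl1 had 1.10 ± 0.13 (SE, adjusted p = 4.3e-08) and Sort1, a sorting receptor, -0.77 ± 0.24 (SE, adjusted p = 0.0085). Sort1 averaged 4.08 CPM in macrophage-like cells, above 2.525 in cDC1-like and 1.29 CPM in cDC2-like cells. It was lower than in mature dendritic-like (15.1 CPM) and pDC-like cells (38.9 CPM). Igf2r, the large mannose 6-phosphate receptor, was higher against the average (2.11 ± 0.38, SE, adjusted p = 3.6e-05), although cDC1-like cells, at 15.5 ± 2.47 CPM, lay above macrophage-like cells at 8.31 ± 3.37 CPM.

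Of 15 genes for the MiT/TFE factors and the mTORC1 platform on the lysosome, 13 were higher and 0 lower against the average. Among all genes 28.4% were higher and 25.4% lower there. The median log2 fold change of the list was 0.58, also with Tfec at its bound. Against mature dendritic-like cells 9 were higher and 2 lower, beside 25.2% and 24.4% of all genes. Against cDC1-like cells 11 were higher and 1 lower, beside 25.5% and 24.8%. Tfec, a relative of TFEB, had 37.8 ± 5.56 CPM in macrophage-like cells and 0 UMIs in cDC1-like cells, out of 10010013 UMIs of that class. A count of 0 allows up to 3 UMIs over the class, so Tfec was at least 126-fold higher than in cDC1-like cells and, on the same floor, at least 30.6-fold higher than in mature dendritic-like cells. Mitf averaged 17.6 ± 2.74 CPM in macrophage-like and 5.54 ± 1.01 CPM in pDC-like cells, with a log2 fold change against the average of 2.74 ± 0.27 (SE, adjusted p = 2.9e-09).

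Inhibitors of proteases other than Cst3 split 4 higher and 3 lower of 8 against the average. Their shares of 50% higher and 37.5% lower stand beside 28.4% and 25.4% of all genes. Against mature dendritic-like cells 2 were higher and 4 lower, beside 25.2% higher and 24.4% lower of all genes. Cstb (cystatin B, an inhibitor of cathepsins inside cells) averaged 853 ± 116 CPM in macrophage-like cells, against 310.5 ± 47.6 CPM in cDC2-like and 127 ± 3.95 CPM in cDC1-like cells, with a log2 fold change against the average of 2.15 ± 0.09 (SE, adjusted p = 3.7e-17). Its direction was thus opposite to that of Cst3. Timp1, an inhibitor of metalloproteinases, had 3.68 ± 0.51 (SE, adjusted p = 1.6e-06) against the average, although cDC2-like cells had 28.0 ± 18.2 CPM and macrophage-like cells 14.5 ± 10.4 CPM. The serpins Serpinb6b and Serpinb1a were lower (-3.93 and -2.31), and Serpinb6b averaged 3.29 ± 2.41 CPM in macrophage-like against 743 ± 153 CPM in mature dendritic-like cells.

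Within the macrophage-like class, levels were set against complement C1q, whose chains are made by many tissue macrophages. This comparison was chosen after the data were seen. Cells were thinned to 7537 UMIs, and 246 cells with at least 3 UMIs of C1qa, C1qb and C1qc together (100, 83 and 63 per mouse) were compared with 382 cells without any (137, 127 and 118). Of 7036 genes tested in a paired edgeR fit without those 3 genes, 96 (1.36%) were called, 44 (0.625%) higher and 52 (0.739%) lower. Of 34 members tested, 4 were higher and 0 lower in cells with C1q UMIs.

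Ctsb had 1341, 1527 and 1268 CPM in cells with and 861, 1071 and 878 CPM in cells without C1q UMIs, with a log2 fold change of 0.58 ± 0.06 (SE, adjusted p = 0.00025). Lgmn had 592, 789.7 and 611 CPM with and 366, 516 and 374 CPM without (0.68 ± 0.08, SE, adjusted p = 0.00045). Both genes were higher in all 3 mice, with no overlap of the groups. Ctsd (0.47 ± 0.09, SE, adjusted p = 0.014) and Tpp1 (0.83 ± 0.17, SE, adjusted p = 0.029) were the other 2, also higher in all 3 mice. Ctsc, by contrast, had 1668, 1467 and 1514 CPM with and 1686, 1486 and 1443 CPM without, and its groups overlapped. DESeq2 called Ctsb and Lgmn only (2 members), and without the mouse block 0 members and 4 genes were called. The calls of Ctsd and Tpp1 were also lost without mouse 1 (adjusted p = 0.09 and 0.25 by edgeR), and that of Tpp1 without mouse 3 (0.081).

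Some other markers moved with this split. Summed monocyte markers were 5342 to 5432 CPM in cells with and 6780 to 7148 CPM in cells without C1q UMIs. Plac8 (2614 ± 62.7 CPM with and 3750 ± 108 CPM without), Vcan and Chil3 were called lower with C1q UMIs. The monocyte markers Ly6c2, Fn1 and Ccr2 were not called. The 7 macrophage markers other than C1q summed to 2067 to 2333 CPM with and 1842 to 2584 CPM without. Of these only Ms4a7 was called, higher with C1q UMIs (log2 fold change 1.34 ± 0.26, SE). The neutrophil gene S100a8 averaged 1.40 ± 2.43 CPM with and 135 ± 212 CPM without, so it varied over the mice by more than its mean. Csf3r, from the same marker list, was not called (47.0 ± 16.5 CPM with and 59.5 ± 16.1 CPM without). The part of monocyte-like or neutrophil-like cells in the differences of the members was not tested.

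**Figure D5:**
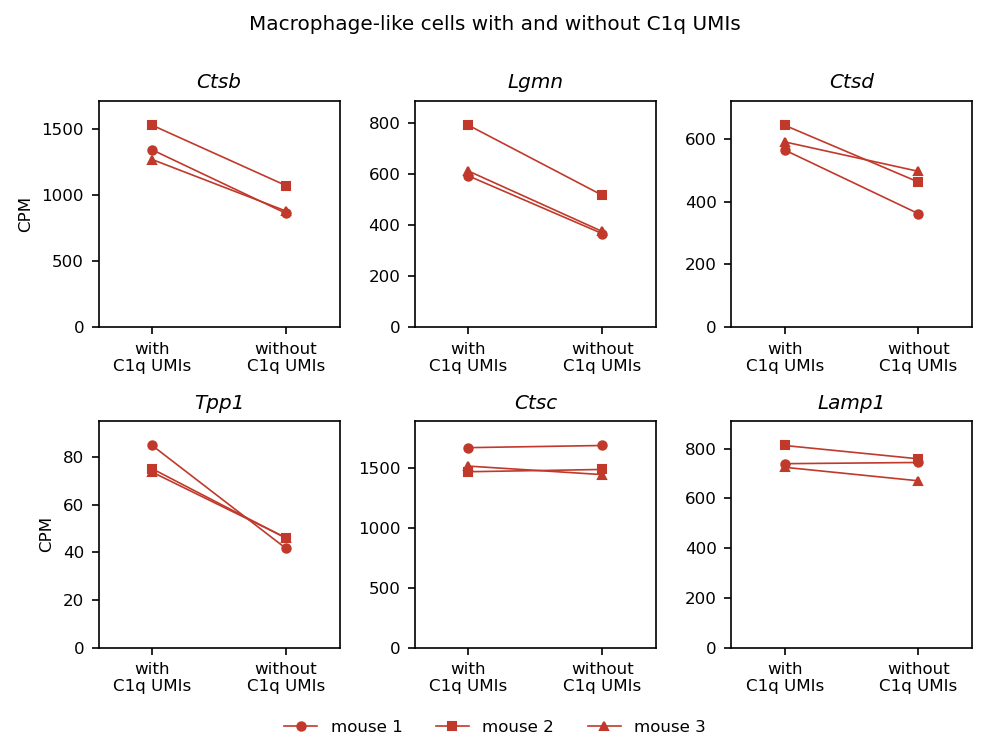
CPM of 6 genes in macrophage-like cells with and without C1q UMIs, with a line per mouse. Ctsb, Lgmn, Ctsd and Tpp1 were higher with C1q UMIs in all 3 mice, and Ctsc and Lamp1 were not called.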

How the data were processed

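Cells were assigned to mice by the deposited hashtag names. The submitters' processing notes name Cell Ranger 3.1.0, Seurat 3.1.5 and mm10. The authors deposited raw UMI counts with no normalization for 5976 cells, each with 1499 to 5999 genes and at most 5% mitochondrial UMIs. The steps behind the hashtag calls and clusters are not given in the sources used here, and no doublet caller was run.

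For each mouse and subcluster the UMI counts were added up, giving 24 sums (8 subclusters in 3 mice), with 2344090 to 14879508 UMIs per subcluster over the mice. CPM are sums scaled to 1000000. The test was edgeR 4.0.16 (glmQLFit, TMM, filterByExpr) in R 4.3.3 with subcluster and mouse as terms and Benjamini-Hochberg adjustment over all 10267 genes. SE is the fold change over the square root of F. The pDC-like level is the mean of its 2 subclusters, and for shares of UMIs they were pooled. The scripts were tested on simulated data.

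Hashtags pair the samples by animal. Deviations of same-mouse sums correlated between -0.03 and 0.233 over 45 pairs (median 0.053). Alternatives were RLE factors, no filter, DESeq2 1.42.0, omission of the mouse block, omission of single mice, a 0.01 threshold, classes gated on marker transcripts, removal of cells with T cell UMIs and cells thinned to 7537 UMIs.

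Genes named are all members, markers and, per pathway list, up to 4 called genes, the 2 highest and 2 lowest; 1 of these is not reported here. The members and lists were chosen with earlier results of these data known. The 127 dividing dendritic-like cells and the 115 cells of subcluster 13 were in the fit but in no dendritic class.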

Additional observations from a re-analysis of the deposited data

How the results depend on the processing

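Of 2528 fold changes of called members under the alternatives, 2423 kept direction and call, 100 kept direction but lost the call and 5 reversed. Against the dendritic average, 27 to 29 members were higher and 1 lower under every alternative run. The reversed values were, with gated classes, Ctsh in macrophage-like against mature dendritic-like cells (0.121) and, in mature dendritic-like against cDC2-like cells, Ctsh (-0.025), Ctsl (-2.266) and Ctsz (-0.413). The last was Ctsl in mature dendritic-like against cDC2-like cells, at -0.226 without mouse 3 and 1.492 without mouse 1, the ends of the range over mice left out. Gated classes are small (107 macrophage-like cells) and called 3114 genes against the dendritic average, 3439 against cDC1-like, 1736 against cDC2-like and 3989 against pDC-like cells, with 4363 in pDC-like against conventional dendritic cells. The matching counts from subclusters were 5521, 5166, 3655, 6907 and 6935. In mature dendritic-like against cDC2-like cells, 3 members were higher with gates. The summed member share with gates was 1.38% in mature dendritic-like and 1.65% in pDC-like cells. In thinned cells, 2075 genes were called in cDC1-like against cDC2-like cells (3480 unthinned) and 2855 in mature dendritic-like against cDC2-like cells (4365 unthinned). Leaving out single mice gave 2131 (without mouse 1) to 2983 in cDC1-like against cDC2-like cells.

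In the C1q comparison, 246 genes were called with no filter, 21 genes and 2 members by DESeq2, 4 genes and 0 members with no replicate block, and 43 genes and 2 members at a threshold of 0.01. Leaving out single mice gave 62 (without mouse 3) to 146 genes (without mouse 2) and 3 to 5 members. The causes were not tested. The mature dendritic-like class has the fewest UMIs of those compared (2424236), which limits its low genes.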

Other observations

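Across the 696 macrophage-like cells kept at 7537 UMIs, correlations between single cells were low for most of the 253 pairs of the 23 members with a mean of at least 1 UMI. Pearson's r had a median of 0.066 and ran between -0.268 and 0.564. The highest were Ctsb with Lgmn (0.564), Ctsb with Ctsd (0.491) and Ctsb with Cd68 (0.444). The cells share 3 mice and 1 library, so these values are a description.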
